A study of Mus musculus with 12 samples.

Results

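ATAC-seq uses the Tn5 transposase to cut accessible DNA, and most of the open sites it finds lie at gene starts, in introns or between genes. A smaller set lies inside the transcribed parts of genes or at their ends. These were the peaks that HOMER, a peak annotation program, had placed in an exon or in a 5' or 3' untranslated region (UTR). Peaks at a transcript end (the transcription termination site, TTS) or in an exon of a noncoding transcript were also taken. HOMER's detailed annotation of them had to name no repeat and no CpG island. A mean of at least 5 tags per 10 M (M, 10 to the power of 6) over the 6 libraries was also required. Of 38244 peaks in the table, 2857 met this rule. They comprised 966 peaks in the 5' UTR class, 920 in the exon class, 500 in the TTS class, 243 in the non-coding class and 228 in the 3' UTR class. A further 33 peaks of these classes had lower means, and the condition on repeats and CpG islands removed 0. Whether members overlap a CpG island or a repeat was not tested otherwise.

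The chromatin came from myotubes of the mouse myoblast line C2C12, whose cells fuse when serum is lowered, with 3 libraries in control medium and 3 after 24 hours in medium conditioned by C26 cells, a mouse colon carcinoma line used as a model of cancer cachexia, the wasting of muscle and fat. Both groups had been grown in DMEM with 10% FBS and differentiated in 2% horse serum for 4 to 7 days. The labels give the cell type as myoblast, the genotype as C3H and the samples as myotubes, and the wells were seeded in triplicate; separate cultures are not stated, so the spread between libraries may be technical. RNA of the same genes was available from muscle of C57BL/6 mice, 3 given PBS and 3 given 500000 LLC (Lewis lung carcinoma) cells, with tissue taken on day 22.

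The classes are defined by the transcript, and each has a known biology. A 5' UTR and a first exon start at the promoter, so a peak there may be the downstream edge of the open region where RNA polymerase is loaded. Inner exons, 3' UTRs and transcript ends usually lie far from a start, and open sites there can be enhancers that happen to overlap transcribed sequence, or the start of a neighbouring gene or of another isoform. The class of a peak says where it lies and not which gene it acts on.

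Libraries held 10.1 to 18.2 M tags, of which 12.0 to 17.9% fell in peaks in 5 of them and 27.0% in control 1, which stood apart. Over all 37358 peaks with a mean of at least 5, the median log2 difference between C26 and control medium was -0.54 on the deposited scale of tags per 10 M and -0.02 after median-of-ratios scaling, a scaling that sets the typical peak equal between libraries. Counts and the log2 differences of named peaks are therefore given on both scales, and a difference on the deposited scale is to be read against that median of -0.54. Values per library are on the deposited scale. On it all 3 C26 libraries lay below all 3 controls in 34% of all tested peaks and in 44.1% of the members, and above them in 3.24% and 1.02%, so groups that do not overlap are common among lower peaks. All 45 members called on that scale have such groups, 10 above and 35 below, and the rule for naming the largest rises and falls asked for them. Of the 14 myoblast and satellite cell markers, 12 had a tested peak, and Myf5 and Calcr had none. Of 52 sarcomere and contractile genes 31 had one, and Ckm and Myh1 were among those without. Of 28 myogenic factors 25 had one, and Myog was among those without. Of 21 epithelial and colon carcinoma markers 13 had one, and the summed level of their peaks was 485 to 1041 tags per 10 M in control medium and 536 to 601 with C26 medium. No member was annotated to Ddit4, which encodes REDD1, or to Fbxo32, Trim63, Foxo1, Mat2a, Ahcy or Dnmt3a.

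The 5 classes differed first in where they sat (plot of the distances). Of the 5' UTR members, 96.5% lay within 1000 bp of the nearest annotated start, with a median distance of 172 bp. The share was 67.8% in the exon class and 55.1% in the non-coding class. It was 21.4% in the TTS class, and in the 3' UTR class 1 of 228 members, or 0.439%, lay that close. The median distance was 5308 bp for TTS members and 15143 bp for 3' UTR members. The smallest distance in any class was 101 bp, and peaks closer to a start carry the promoter annotation instead.

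**Figure D1:**
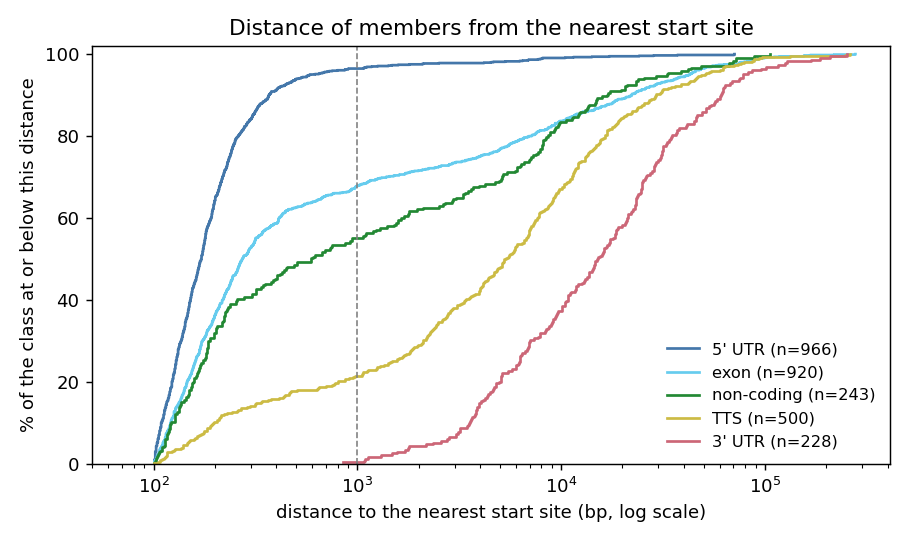
Cumulative percentage of the members of each class (y axis) at or below a given distance in bp from the nearest annotated start site (x axis, log scale), with the dashed line at 1000 bp. The 5' UTR curve reaches 96.5% at the dashed line, while the 3' UTR curve stands at 0.439% there.

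Within the exon class the position in the transcript made the same division. First exons of genes with several exons held 550 of the 920 members, single exons 47, last exons 81 and inner exons 242. Of the first-exon members 98.9% lay within 1000 bp of a start, against 12.0% of the inner-exon members and 7.41% of the last-exon members. Of the 228 members in the 3' UTR class, 226 lay in the last exon of their transcript.

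Level and width followed the same order. Median widths were 777 bp in the 5' UTR class, 639 bp in the exon class, 581 bp in the non-coding class, 515 bp in the TTS class and 490 bp in the 3' UTR class. Median levels over the 6 libraries were 51.2, 34.9, 34.7, 29.6 and 25.2 tags per 10 M in that order, beside 30.1 for all tested peaks. Per kb of peak the class medians lay closer together, from 55.0 tags per 10 M in the exon class to 63.1 in the 5' UTR class. A 5' UTR member was found in all 6 of the authors' peak lists in 83.6% of cases and a 3' UTR member in 50.4%, beside 60.7% of all tested peaks. No 5' UTR member was listed in C26 libraries alone, while 6 were listed in control libraries alone; the counts for the 3' UTR class were 7 and 7.

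Most members belong to protein-coding genes, with exceptions that the class names hide. In the TTS class 413 of 500 members were at ends of protein-coding genes, 54 at long noncoding RNAs and 26 at microRNA genes, which are so short that their end is also their start. In the non-coding class 140 of 243 were at long noncoding RNAs and 90 at noncoding isoforms of protein-coding genes. The gene whose start is nearest differed from the gene of the annotated transcript for 259 of 500 TTS members and 123 of 228 3' UTR members, but for 15 of 966 5' UTR members. Members are named here by the gene of the annotated transcript. The 2857 members fell on 2697 genes, of which 2551 held 1, 134 held 2, 11 held 3 and 1, the splicing regulator Rbfox2, held 5.

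Some members contained a whole promoter window, taken as the 250 bases before and the 50 bases after a start in RefSeq (build GRCm38.p6). There were 335 such members in the 5' UTR class, 138 in the exon class, 37 in the non-coding class, 14 in the TTS class and 1 in the 3' UTR class. None of the 14 TTS members held the start of its own gene. They held that of a neighbour, as where the end of Tmem129 meets the start of Slbp, the histone mRNA stem-loop binding protein, or where the end of Akap8l meets the start of Akap8, a nuclear anchoring protein for protein kinase A. The following 30-base stretches, all upstream of a start and read 5' to 3' on the strand of that gene, show the promoter sequence that such exon, UTR and transcript-end peaks contain, with the matched motif in capitals. The first 4 genes held members that fell on both scales, and Slbp and Akap8 are the 2 neighbours just named.
Eif1, in its exon member, chr11:100319781-100319810, plus strand, AP-1: tcgcccctcccTGAGTCAacagaacatcct
Irs1, in its 5' UTR member, chr1:82291625-82291654, minus strand, ETS: ggcgggctcggcCCGGAAtgtagagcgagc
Bcl6, in its 5' UTR member, chr16:23988876-23988905, minus strand, GC box: cggcggcggagcGGGCGGttccatcggtgg
Pmp22, in its 5' UTR member, chr11:63132638-63132667, plus strand, GC box: aggccgagccggGGGCGGggcggctgctct
Slbp, in the TTS member of Tmem129, chr5:33652665-33652694, minus strand, CCAAT box: ggcgcgcactgcCCAATctcccgccaatat
Akap8, in the TTS member of Akap8l, chr17:32321251-32321280, minus strand, ETS: tagatttgcaacCCGGAAggctgggcggat

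The promoter windows inside members were GC-rich, with a median of 64.7% G and C against 52.7% over all 32851 windows in the table. The GC box (GGGCGG, either strand) was found in 74.6% of the 591 windows inside members and in 35.7% of all windows. The ETS motif (CCGGAA) was found in 28.1% against 14.9%. The CCAAT box (CCAAT) was in 33.7% against 37.4% and the E-box of muscle regulators (CAGCTG) in 16.9% against 16.3%. Motifs of 3 factor families were in smaller shares of the windows inside members than of all windows: AP-1 (TGANTCA) in 4.57% against 7.81%, TEAD (GGAATG) in 10.3% against 14.7% and RUNX (TGTGGT) in 10.3% against 16.8%. The MEF2 site was found in 0 of the 591 and in 0.164% of all. ETS and TEAD letters overlap in GGAA, as they do at Irs1, where the same stretch shifted by 2 bases reads cgggctcggcccGGAATGtagagcgagcag on chr1:82291623-82291652. These shares describe letters, and the part of base composition in them was not tested.

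A second kind of sequence inside the TTS class is the microRNA. Of 26 TTS members at microRNA genes, 6 spanned the entire hairpin, and the mature strands of 4 are given with the seed, bases 2 to 8, in capitals, since these are the members in which the open site and the gene are the same piece of DNA.
miR-8114, chr1:153899989-153900009: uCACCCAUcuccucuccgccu
miR-5122, chr4:133369784-133369803: cCGCGGGAcccggggcugug
miR-6936-3p, chr11:120624827-120624847: cGGCGCGCgcggucgcucacc
miR-7011-5p, chr3:88440924-88440946: aGGAGGAUgggagagggaggugu
No 2 of these 4 seeds are alike. The Mir8114 peak, which also holds the start of Glul, the glutamine synthetase gene, had the highest level of the 6, at 160, 95.9 and 117 tags per 10 M in controls 1 to 3 and 78.4, 78.8 and 77.2 with C26 medium. The C26 values lay below all 3 controls, but the difference did not pass the test on either scale (log2 difference -0.63, adjusted p = 0.19, and -0.10, adjusted p = 0.48, after scaling). None of the 6 was called on either scale. Of the 26, 2 were called lower (7.69%) and 1 higher (3.85%) after scaling (limma, adjusted p under 0.05), where 12.7% and 17% of all tested peaks were.

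The first question was whether the classes as wholes shifted against the rest of the open chromatin with C26 medium. For each library the median level of a class was set against the median of all tested peaks of that library, which cancels a common scale. On log2(tags per 10 M + 1), the 5' UTR class stood 0.84, 0.82 and 0.86 above all peaks in controls 1 to 3 and 0.63, 0.61 and 0.57 above them with C26 medium. All 3 C26 libraries lay below all 3 controls, and the difference of the means was -0.24. The exon class had 0.33, 0.25 and 0.29 in controls and 0.09, 0.14 and 0.05 with C26 medium, again without overlap and with a difference of -0.20. The 3' UTR class lay below all peaks in every library and differed in the other direction, with -0.33, -0.31 and -0.30 in controls and -0.25, -0.23 and -0.22 with C26 medium, a difference of 0.082. Without control 1, the library that stood apart, these 3 differences were -0.24, -0.18 and 0.072.

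The TTS class had -0.01, 0.02 and -0.02 in controls and -0.04, -0.05 and -0.09 with C26 medium, with groups that did not overlap and a difference of -0.057. The non-coding class had 0.24, 0.24 and 0.22 in controls and 0.15, 0.23 and 0.07 with C26 medium, with overlap, a difference of -0.082 and an exact two-sided permutation p of 0.2. For each of the other 4 classes the exact two-sided permutation p was 0.1, the smallest that 3 against 3 libraries allow, and 0.125 after adjustment over the 5 classes, so none passed 0.05. The gap between the 5' and 3' UTR classes was 1.17, 1.13 and 1.16 in controls and 0.88, 0.84 and 0.79 with C26 medium, also at p = 0.1 by the same exact permutation test. Promoter peaks differed by -0.25 and intergenic peaks by 0.080, beside -0.24 and 0.082 in the 5' UTR and 3' UTR classes.

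**Figure D2:**
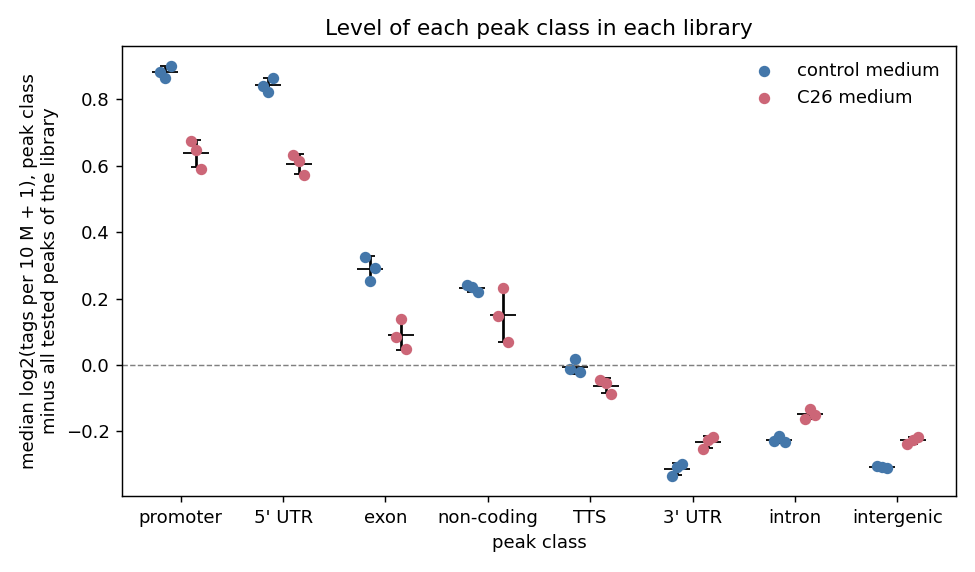
Median log2(tags per 10 M + 1) of each peak class minus that of all tested peaks (y axis) in each of the 6 libraries; points are libraries, bars the mean and SD of 3. The 5' UTR points lie at 0.82 to 0.86 in control medium and at 0.57 to 0.63 with C26 medium, while the 3' UTR points lie between -0.33 and -0.30 and between -0.25 and -0.22.

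Peak by peak on the deposited scale, 10 of the 2857 members passed the test as higher with C26 medium and 35 as lower (limma, adjusted p under 0.05). Over all 37358 tested peaks 1.15% were called higher and 1.88% lower, 3.03% in all, beside 0.35% and 1.23% of the members. The median log2 difference was -0.64 for members and -0.54 for all tested peaks. By class, 1 exon peak was called higher and 10 lower, 0 and 7 in the 5' UTR class, 2 and 3 in the 3' UTR class, 5 and 10 in the TTS class, and 2 and 5 in the non-coding class. Leaving out 1 library changed the counts of 10 and 35 by more than 1.5 times. Called higher and lower were 4 and 2 without C26 replicate 1 or C26 replicate 2, and 3 and 4 without C26 replicate 3. There were 4 and 4 without control 3, 47 and 223 without control 1, and 16 and 1929 without control 2. Of the 45 members called with all libraries, 44 were called in the same direction without control 1.

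After median-of-ratios scaling 240 members were called higher and 503 lower, where 17% of all tested peaks were called higher and 12.7% lower, 29.8% in all. The split between directions differed by class. In the 5' UTR class 2.28% were called higher and 22.4% lower (22 and 216 peaks). In the exon class it was 5.33% and 16.4% (49 and 151). The non-coding class had 14% and 16.9% (34 and 41), and the TTS class had 16.2% and 14.4% (81 and 72). In the 3' UTR class 23.7% were called higher and 10.1% lower (54 and 23). With a library left out, the scaled fit called 187 to 216 members higher and 312 to 424 lower; the count of 312 was that without control 3, and without control 1 the counts were 207 and 382.

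**Figure D3:**
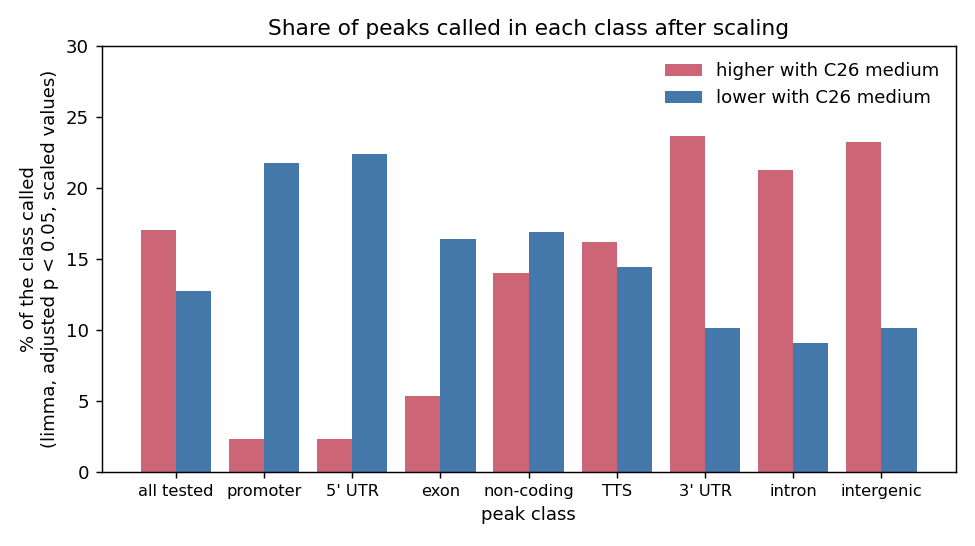
Percentage of peaks in each class (y axis) called higher or lower with C26 medium by limma at an adjusted p under 0.05 after median-of-ratios scaling; bars are counts over 1 fit of 6 libraries and carry no error. The blue bars for lower calls stand above the red bars for higher calls in promoter, 5' UTR and exon peaks, and the order is the reverse in 3' UTR, intron and intergenic peaks.

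Median changes were lower near a start than far from it in the exon, non-coding and TTS classes, a split made after the data had been seen. Among members within 1000 bp of a start the scaled median log2 difference was -0.16 in the 5' UTR class, -0.18 in the exon class, -0.15 in the non-coding class and -0.11 in the TTS class, beside -0.16 for promoter peaks and -0.14 for intron peaks equally close. Called higher and lower were 18 and 210, 12 and 126, 3 and 29, and 3 and 13 of them. Lower calls made 22.5%, 20.2%, 21.6% and 12.1% of these groups, beside 12.7% of all tested peaks. Higher calls made 1.93%, 1.92%, 2.24% and 2.80%, beside 17%. Among members further away the medians were -0.02 in the exon class, 0.06 in the non-coding class, -0.01 in the TTS class and 0.07 in the 3' UTR class, beside 0.11 for intron peaks equally far. Here the calls were 37 and 25, 31 and 12, 78 and 59, and 54 and 23, in groups of 296, 109, 393 and 227 members. Of these groups 12.5%, 28.44%, 19.85% and 23.79% were called higher, beside 17% of all tested peaks. The shares called lower were 8.45%, 11.01%, 15.01% and 10.13%, beside 12.7%. Both shares of the distant exon members thus lay below those of all tested peaks. The exception in the medians was the 5' UTR class, whose 34 distant members had a median of -0.14 with 4 called higher and 6 lower. All 10 members called higher on the deposited scale lay over 1000 bp from a start, as did 21 of the 35 called lower. Of all 2857 members 1059 lay that far. Called higher and lower were 0.944% and 1.98% of these 1059, beside 1.15% and 1.88% of all tested peaks. Intron peaks, which are no members, had 149 of their 150 higher calls and 237 of their 252 lower calls at that distance. Of all 13592 intron peaks 12357 lay that far.

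Set against all peaks of its library, the near exon members stood 0.54, 0.52 and 0.56 above in controls and 0.28, 0.32 and 0.27 above with C26 medium. The distant exon members stood 0.29, 0.31 and 0.31 below in controls and 0.40, 0.38 and 0.31 below with C26 medium, groups that overlapped. Near members were also wider (median 757 bp against 464 bp) and higher (47.0 against 25.8 tags per 10 M), so distance, width and level moved together.

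**Figure D4:**
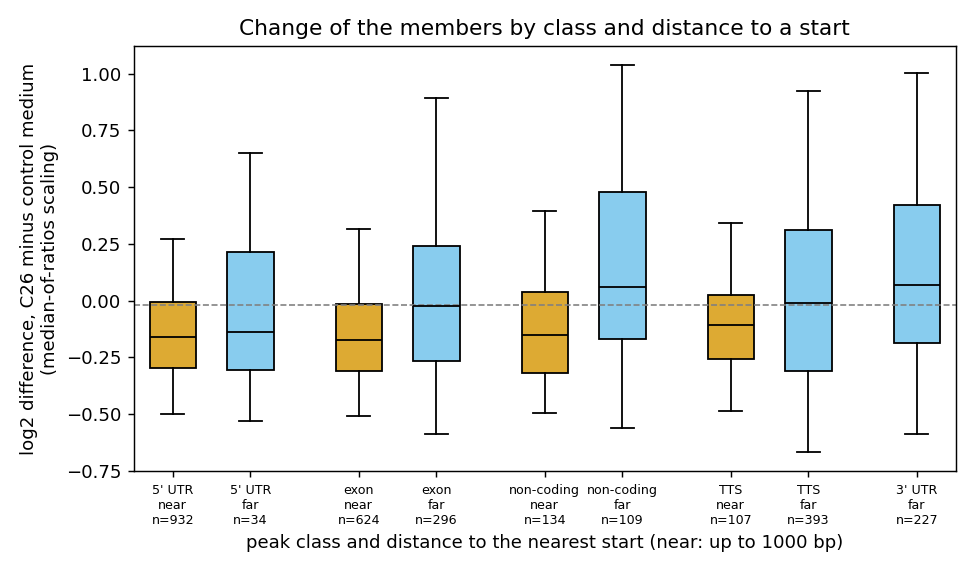
Log2 difference between C26 and control medium after median-of-ratios scaling (y axis) for members within 1000 bp of a start (near, yellow) and beyond it (far, blue) in each class; boxes span the quartiles with the median, whiskers the 5th to 95th percentile of members, and the dashed line is the median of all tested peaks, -0.02. Near boxes have medians from -0.18 to -0.11, and far boxes from -0.14 in the 5' UTR class to 0.07 in the 3' UTR class.

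Among the 10 members called higher on the deposited scale, 2 lay in 3' UTRs. The 3' UTR of Arf2, a small GTPase of the Golgi, held a peak of 462 bp (chr11:103984073-103984534) with 9.38, 7.43 and 2.97 tags per 10 M in controls 1 to 3 and 32.4, 36.4 and 36.0 with C26 medium. The lowest C26 library was over 3 times the highest control, and the log2 difference was 2.35 ± 0.43 (SE, adjusted p = 3.3e-05), or 2.83 after scaling. A neighbouring peak in the same 3' UTR (chr11:103984915-103985442) had 38.4, 12.2 and 13.8 in controls and 36.7, 34.4 and 41.8 with C26 medium. Its groups overlapped through control 1, and it passed only after scaling (log2 difference 1.48, adjusted p = 1e-08).

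The 3' UTR of Mcl1, an anti-apoptotic relative of BCL2, was nearly closed in control medium, with 4.02, 0 and 0.49 tags per 10 M, and held 16.4, 13.2 and 15.7 with C26 medium (chr3:95662217-95662465). Its difference of 3.03 ± 0.52 (SE, adjusted p = 6.7e-06) was the highest of any called member, at a mean level under the 20 tags required for the named genes; it was chosen after its value was seen. In the exon class Vwa8, a mitochondrial ATPase gene, held the only member called higher on the deposited scale, against 49 after scaling. Its exon 27 of 45 (chr14:79080962-79081396) had 8.04, 6.75 and 6.43 in controls and 26.9, 35.0 and 43.7 with C26 medium, a log2 difference of 2.14 ± 0.43 (SE, adjusted p = 0.0002). The last exon of the noncoding transcript Gm10635 (chr9:79446525-79447207) had 7.15, 4.05 and 7.41 against 37.5, 35.4 and 42.3, a log2 difference of 2.48 ± 0.43 (SE, adjusted p = 7e-06). After scaling the differences were 3.51 at Mcl1, 2.63 at Vwa8 and 2.97 at Gm10635.

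The 5 transcript ends called higher on the deposited scale include that of Ptgs2, which encodes cyclooxygenase 2, the inducible enzyme of prostaglandin synthesis. The peak (chr1:150108304-150109203), 8722 bp from the start, had 18.8, 6.08 and 10.9 tags per 10 M in controls and 36.3, 30.2 and 42.9 with C26 medium, and its log2 difference was 1.65 ± 0.42 (SE, adjusted p = 0.0075). The end of Agxt2, a mitochondrial aminotransferase gene, had 24.6, 7.76 and 9.39 against 45.3, 29.5 and 37.6 (log2 difference 1.52, adjusted p = 0.016). The end of Vipr1, a receptor for vasoactive intestinal peptide, had 8.94, 2.03 and 6.92 against 20.7, 13.5 and 19.8 (1.59, adjusted p = 0.027). With scaling these 3 differences were 2.16 at Ptgs2, 2.03 at Agxt2 and 2.09 at Vipr1. The ends of Syt17 and Dnajc5b, at mean levels under 20, rose by 1.90 and 1.72, and the non-coding member of Gm19500 by 1.34 (2.39, 2.24 and 1.84 after scaling).

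In the TTS class 10 members were called lower on the deposited scale. The end of Bmp1, the protease that cleaves procollagen and the antagonists of bone morphogenetic proteins, had the largest fall of the class (chr14:70473753-70474684), with 90.7, 56.0 and 75.1 tags per 10 M in controls and 14.4, 19.8 and 14.8 with C26 medium. The highest C26 library was far below the lowest control, and the log2 difference was -2.10 ± 0.39 (SE, adjusted p = 4.6e-05). The end of Ccn1, a matrix protein and YAP target (chr3:145646016-145646528), had 60.8, 39.8 and 53.9 against 17.9, 9.72 and 17.6 (-1.73 ± 0.40 SE, adjusted p = 0.0025). The end of the noncoding Gm16104 had 139, 68.8 and 89.5 against 28.9, 30.2 and 32.7 (-1.61, adjusted p = 0.0025). The end of the immediate early factor Egr1 also fell, from 315, 160 and 205 to 89.0, 76.7 and 83.2 (-1.38, adjusted p = 0.0039). After scaling the differences were -1.58 at Bmp1, -1.22 at Ccn1, -1.08 at Gm16104 and -0.85 at Egr1. Other transcript ends called lower included those of Mill2, Tbc1d31, Marveld1, Hes7 and the small nuclear RNA Rnu11.

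On the deposited scale the 3' UTRs of 3 genes held a member called lower. That of Ube2n, a ubiquitin-conjugating enzyme (chr10:95544838-95545417), went from 124, 70.2 and 84.5 tags per 10 M to 25.8, 30.9 and 35.4, a log2 difference of -1.54 ± 0.37 (SE, adjusted p = 0.0045). The 3' UTR of Klf15, a glucocorticoid-induced factor of muscle and fat metabolism (chr6:90477081-90477383), went from 28.6, 11.5 and 23.2 to 3.90, 2.08 and 7.69 (-2.03 ± 0.47 SE, adjusted p = 0.0023). That of Cavin1, a coat protein of caveolae, went from 34.4, 18.2 and 34.1 to 11.3, 6.94 and 9.06 (-1.53, adjusted p = 0.020). The scaled differences of these 3 were -1.01, -1.56 and -1.03. Cavin1 carried 2 further members: its first exon had 294, 142 and 192 in controls and 126, 108 and 135 with C26 medium, and its end had 84.0, 38.1 and 50.4 against 41.4, 39.6 and 48.1. Neither of these passed on either scale, so the 3 members of 1 gene were not called alike; the difference between them was not tested.

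In the 5' UTR class all 7 calls on the deposited scale were falls. Bcar3, an adaptor of integrin signalling, had 57.6, 28.4 and 31.1 tags per 10 M in controls and 10.5, 10.8 and 13.2 with C26 medium (chr3:122483489-122483951, log2 difference -1.61 ± 0.41 SE, adjusted p = 0.0089). Ltbp3, which holds latent TGF-beta in the matrix, fell by 1.38 (adjusted p = 0.019). Irs1, the adaptor between the insulin and IGF1 receptors and PI3 kinase, had a peak (chr1:82290668-82291798) with 372, 190 and 246 in controls and 104, 121 and 132 with C26 medium (-1.12 ± 0.32 SE, adjusted p = 0.023). The C26 libraries of Irs1 lay below the controls, as they did in 51.3% of the 5' UTR class. Further calls were the repressor Bcl6 (-1.31), the replacement histone gene H3f3b (-1.25) and the myelin protein gene Pmp22 (-1.17). After scaling the differences were smaller, at -1.11 for Bcar3, -0.86 for Ltbp3, -0.59 for Irs1, -0.79 for Bcl6, -0.72 for H3f3b and -0.65 for Pmp22.

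The exon class had 10 members called lower on the deposited scale. Eif1, which helps the ribosome find the start codon, had 258, 107 and 164 tags per 10 M in controls and 64.8, 54.8 and 75.5 with C26 medium (chr11:100319643-100320642, log2 difference -1.35 ± 0.34 SE, adjusted p = 0.0081). Ufc1, the conjugating enzyme of the ubiquitin-like UFM1, had 45.1, 24.3 and 36.1 against 11.7, 11.8 and 11 (-1.49, adjusted p = 0.020). Exon 9 of 34 of the cadherin gene Celsr2 had 72.8, 28 and 45.5 against 17.2, 15.3 and 14.8 (-1.47, adjusted p = 0.017). With scaling they were -0.82 at Eif1, -0.98 at Ufc1 and -0.95 at Celsr2. The other 7 were in exons of Kif13b, Olfr654, Tchh, Opn5, Dus3l, B3gnt9 and Chrac1.

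In the non-coding class the largest fall was at BC039771 (chr2:145752353-145752786), from 33.5, 22.6 and 43.5 tags per 10 M to 2.34, 3.12 and 12.1, a log2 difference of -2.55 ± 0.44 (SE, adjusted p = 7.8e-06). A noncoding isoform of Hnrnpu, which encodes a nuclear matrix protein, had 96.5, 40.8 and 69.7 against 27.7, 23.6 and 30.2 (-1.24, adjusted p = 0.044), A430078I02Rik fell by 1.22 and 4930526I15Rik by 1.05. The scaled differences of these 4 were -2.08, -0.71, -0.70 and -0.52. The highest peak of all members was Rn45s, a copy of the 45S ribosomal RNA precursor (chr17:39843034-39848781). Its values were 10962, 7598 and 10622 in controls and 7223, 6363 and 5671 with C26 medium, and reads of the many ribosomal copies cannot be assigned to this one. It was called on the deposited scale (-0.59, adjusted p = 0.021) and not after scaling (-0.05, adjusted p = 0.86). It was the only one of the 45 called members that the scaled fit did not call in the same direction.

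**Figure D5:**
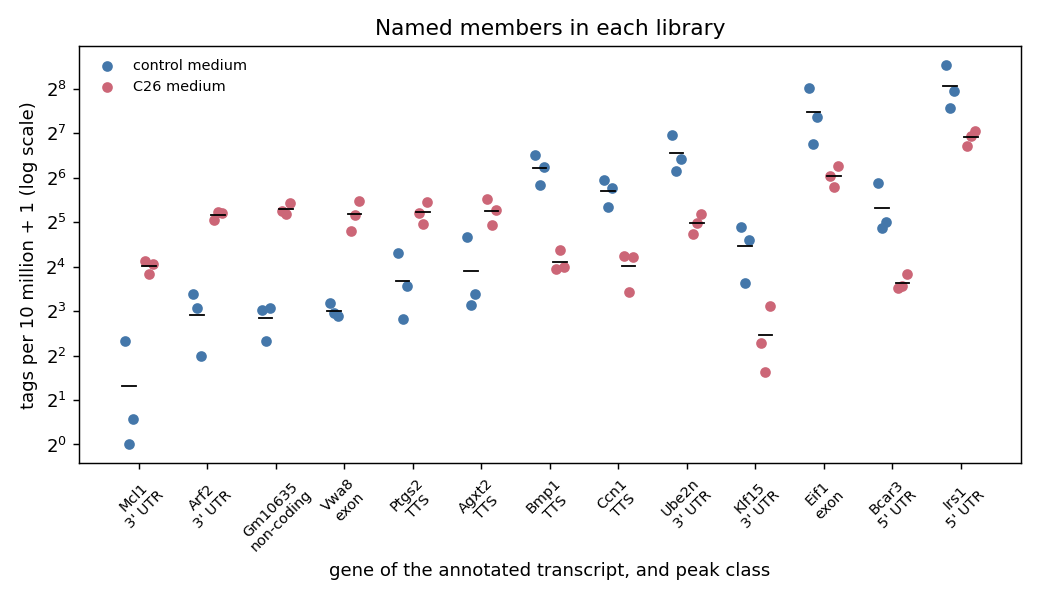
Tags per 10 M plus 1 (y axis, log scale) in each of the 6 libraries for 13 named members; points are libraries and lines group means. The first 6 members have all C26 points above all control points, and the last 7 have all C26 points below them.

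The highest members of the other classes were not called on the deposited scale. They were the 5' UTR of Tarbp2, a partner of Dicer, with 431, 230 and 308 tags per 10 M in controls and 194, 178 and 197 with C26 medium, the first exon of Tor1aip1, the end of Camta2 and the 3' UTR of Lars2. After scaling only Tor1aip1 passed (log2 difference -0.25, adjusted p = 0.023). The members nearest to the level threshold ranged from means of 5.15 in an exon of Herc2 to 7.40 in A430093F15Rik on the inside. On the outside they ranged from 1.91 at the 5' UTR peak of Gm13276 to 4.32 at the 3' UTR peak of Apol7e.

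Gene lists were chosen by pathway and counted over members of all 5 classes. Of all tested peaks 1.15% were called higher and 1.88% lower on the deposited scale, and 17% and 12.7% after scaling. In the 5' UTR class, to which several members named below belong, 2.28% and 22.4% were called after scaling, with a scaled median of -0.16. Of 7 members at AP-1 and immediate early genes 1 was called lower and 0 higher, and 5 were called lower after scaling, among them the 5' UTRs of Jund (-0.52) and Atf3 (-0.36) beside Egr1. The median of the list was -0.89 on the deposited scale and -0.36 after scaling, against -0.54 and -0.02 for all tested peaks. Of 12 members at genes of TGF-beta, activin and BMP signalling 2 were called lower, Bmp1 and Ltbp3, with 1 higher and 3 lower after scaling; the third was the 5' UTR of Tgfbr2 (-0.43). Of 15 members at extracellular matrix and adhesion genes 1 was called lower, Ccn1, and 5 lower and 1 higher after scaling, including the 5' UTR of Timp3 (-0.59) and the end of Thbs1 (-0.53). Of 10 members at cytokine genes Ptgs2 was called higher, and after scaling 3 were called lower, among them both tumour necrosis factor receptors, Tnfrsf1a (-0.66) and Tnfrsf1b (-0.55).

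Other lists held few calls, to be read against the same shares of all tested peaks. Of 2 members at atrophy and FOXO pathway genes Irs1 was called lower, and the 5' UTR of Traf6 was not (-0.58, adjusted p = 0.27). Of 9 members at genes of the integrated stress response and one-carbon metabolism 0 were called, and after scaling 3 were lower, the 5' UTRs of Atf4 (-0.31) and Psat1 (-0.29) and the first exon of Slc3a2 (-0.27). Of 5 members at myogenic factors 0 were called, with 2 higher and 1 lower after scaling; of 4 at sarcomere genes 0, with 1 higher; of 11 at Wnt genes 0, with 3 higher and 1 lower; of 10 at cell cycle genes 0, with 2 lower; of 6 at homeobox genes 0 and 0; and of 7 at long noncoding RNAs 0, with 2 lower, Neat1 (-0.58) and Snhg15 (-0.55). Among markers of other cell types, Klf15 was the only call on the deposited scale. Of 3 members at adipocyte markers 1 was called lower, and 2 after scaling, Klf15 and an exon of Pparg (-0.65). Counting every tested peak, 10 of the 15 adipocyte markers had one, and Cidea, Cidec, Fabp4, Plin1 and Retn had none. The summed level of the list was 827 to 1621 tags per 10 M in control medium and 646 to 795 with C26 medium. The part of fat cells in this result was not tested. Myoblast, osteoblast, epithelial and blood markers had 2, 2, 1 and 1 members, with 0 calls on either scale.

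Of the 2697 genes with a member, 2606 were found in the muscle RNA and 80.4% of these had a mean of at least 1 FPKM, against 64.3% of all genes. The share was 90.5% for 5' UTR genes, 83.7% for exon genes, 73.3% for 3' UTR genes, 70.1% for TTS genes and 54.4% for non-coding genes, and the median levels stood in the same order, from 7.14 to 1.63 FPKM. Between LLC and PBS muscle 0 member genes passed the test, as did 0 of all 12981 genes tested (0%, limma). At an unadjusted p under 0.05 there were 144 member genes (6.88%) and 991 of all genes (7.63%). Klf15 had 12.4, 14.3 and 12.7 FPKM after PBS and 14.7, 18.2 and 19.9 after LLC cells, Ccn1 16.6, 17.4 and 12.9 against 30.4, 27.4 and 18.0, and Irs1 14.1, 8.39 and 5.36 against 7.83, 5.95 and 8.30. The groups of Klf15 and Ccn1 did not overlap and those of Irs1 did, with adjusted p of 0.60, 0.59 and 1. Klf15, Ccn1 and Irs1 are examples. Among other genes with a member called lower on the deposited scale, Ufc1 and Ube2n had RNA groups without overlap that lay lower after LLC cells. The groups of Cavin1, Chrac1 and Mill2 lay higher without overlap. Endothelial and blood markers varied widely within groups, with sums of 1303 to 31423 FPKM after PBS and 2755 to 8615 after LLC cells. This is another tissue and another tumour than the chromatin, so the values stand side by side only. In such bulk samples fewer cells of a type and less RNA per cell cannot be told apart.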

How the data were processed

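The deposited ATAC values are signal: tags in each region of a merged peak list, brought by the authors to 10 M tags a library and annotated with HOMER in mm10, per the file headers. Products with the library totals fell on whole read ends for 100% of values (tolerance 0.1). The RNA values are FPKM deposited by the authors, made with HOMER per the file headers. The tools named in the submitters' processing notes are Bowtie2, MACS2, HISAT2, HOMER and DESeq2, with no versions; peak threshold and duplicate handling: not given in the sources used here. 0 columns of other samples were present.

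From these, log2(value + 1), which understates changes of low peaks, was tested over all peaks with a mean of at least 5 (RNA: genes of at least 1 FPKM) with limma 3.58.1 in R 4.3.3 (trend, two-sided, Benjamini-Hochberg, threshold 0.05), on the deposited scale and after median-of-ratios scaling. SE is that of the log2 difference. Alternatives were edgeR 4.0.16 and DESeq2 1.42.0 on recovered read ends, quantile normalization, other pseudocounts and floors, a replicate block and leaving out each library. The fits were tested on simulated data. Class levels were compared with an exact permutation test. Depth limits low peaks most, and without molecular identifiers read ends are not independent molecules.

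Symbols of annotated transcripts came from RefSeq (GRCm38.p6) for 2847 of 2857 members. Named genes are, per class, the highest mean, the 3 largest called rises and falls with groups that do not overlap and a mean of at least 20, the members nearest to the floor, up to 3 members of smallest p per list, and 7 genes of the series' subject. Other called members, genes with several members, histone genes and members over promoter windows or microRNAs were chosen after their values were seen. The members and all 17 lists were chosen with earlier results of these data known. Peak sequence needs a genome and was not analysed here. Some called members are not reported here by name.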

Additional observations from a re-analysis of the deposited data

Results flagged for a closer look

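With C26 medium the level of the 5' UTR peaks relative to all tested peaks differed by -0.24 on the log2 scale, and that of the 3' UTR peaks by 0.082. The former was lower in 3 of 3 C26 libraries than in every control and the latter higher in 3 of 3, so the 2 classes differed in opposite directions. The gap between them differed by -0.32, with an exact two-sided permutation p of 0.1, the smallest that 3 against 3 libraries can give.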

How the results depend on the processing

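On the deposited scale 10 members were called higher and 35 lower. These counts were 240 and 503 with median-of-ratios scaling, 204 and 510 with quantile normalization, 247 and 509 with edgeR and 164 and 247 with DESeq2 on recovered read ends. In that order of settings the calls were 200, 196, 203 and 98 for exon peaks (11 on the deposited scale), 238, 211, 243 and 115 for 5' UTR peaks (7), 77, 75, 79 and 47 for 3' UTR peaks (5), 153, 161, 155 and 107 for TTS peaks (15) and 75, 71, 76 and 44 for non-coding peaks (7). Without a filter on low means 5 were higher and 10 lower, with 4 exon, 0 5' UTR, 5 TTS and 2 non-coding peaks. At a mean of at least 20, 5 were higher, with 6 exon, 2 3' UTR and 4 non-coding peaks. Beyond 1000 bp of a start 21 were lower, with 5 exon and 2 5' UTR peaks. Leaving out 1 library gave 3 to 47 higher and 2 to 1929 lower, and 1 to 651 exon, 0 to 755 5' UTR, 2 to 98 3' UTR, 1 to 286 TTS and 2 to 155 non-coding calls. After scaling it gave 187 to 216 higher and 312 to 424 lower.

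Of the 45 called members, 44 kept their call and direction with scaling, quantile normalization, edgeR, DESeq2 and the replicate block, and 6 to 8 did without control 3 or any 1 C26 library. The directions of the 5 class levels held with the mean over peaks, a pseudocount of 5 and each library left out. Calls of RNA stayed at 0 in every alternative run. Some members without a call on the deposited scale were called in the other direction. The 3' UTR peak of Rbfox2 had 0.42 with scaling, 0.38 with quantile normalization and 0.40 with edgeR, that of Vipr1 had 0.48, 0.43 and 0.50, and that of Pde4b had 0.38 with scaling and 0.39 with edgeR. The 5' UTR peak of Pde4b had 0.30 and the TTS peak of Camta2 0.12 with quantile normalization. On the deposited scale the 3' UTR peaks had -0.10 at Rbfox2, -0.04 at Vipr1 and -0.14 at Pde4b. The 5' UTR peak of Pde4b had -0.31 and the TTS peak of Camta2 -0.55. The median of all tested peaks was -0.54 on that scale, -0.02 after scaling and -0.06 with quantile normalization. A cause beyond the change of scale was not tested. The labels share replicate numbers but state no pairing. Correlations of same-numbered deviations were -0.015, 0.010 and -0.018. Taken after scaling and within groups, they cannot show whether libraries were prepared in pairs. With the replicate block 9 were higher and 36 lower, and 242 and 484 after scaling. The planned search of longer peak sequence was not run.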

Other observations

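The 16 members at a set of histone genes, grouped after the data had been seen, lay in exons, 5' UTRs and ends of these short genes. The set took symbols that begin with H1f, H2aj, H2ax, H2al, H3c, H3f3, H4c or H4f. Other H2A genes and all H2B genes were not searched, so the counts do not cover all histone genes. Of them 1, H3f3b, was called lower on the deposited scale, and 6 were lower and 1 higher after scaling. That is 37.5% lower and 6.25% higher, where 12.7% and 17% of all tested peaks were called. Of the 16, 13 lay within 1000 bp of a start, and 378 of the 1798 members that close were called lower. The scaled median was -0.32, against -0.16 for members that close and -0.12 for all members. The 6 lower ones included the 5' UTR of the linker histone gene H1f0 (-0.51) and the exons of H4c9 (-0.77), H4f16 (-0.41) and H2ax (-0.31). H4c9 had 48.3, 24.3 and 39.6 tags per 10 M in controls and 10.5, 15.6 and 17.3 with C26 medium. The higher one was the end of H2al3, with 10.3, 14.9 and 10.4 against 18.7, 18.4 and 15.7. Some histone genes are near-identical copies, so reads may be split between those.

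Rbfox2 carried 5 members. Its 5' UTR peaks had 332, 160 and 201 tags per 10 M in controls and 146, 124 and 149 with C26 medium at one start, and 108, 53.7 and 72.7 against 55.0, 40.3 and 47.8 at another. Neither was called on either scale. Downstream, its 3' UTR peak (0.42) and an exon peak (1.12) were called higher after scaling, and its TTS peak (0.15) was not. At Pde4b, a cyclic AMP phosphodiesterase gene, the TTS peak had 52.7, 27.0 and 45.5 against 56.2, 59.0 and 72.5 and was called higher after scaling (1.14, adjusted p = 5.9e-10), as was the 3' UTR peak (0.38); the 5' UTR peak was not (0.22). Among called 5' UTR members with a mean of at least 20, that of Mpp4 had the largest scaled rise (1.14). Its values were 61.7, 39.5 and 62.3 against 83.5, 76.3 and 86.8. The non-coding member at Bmf, a pro-apoptotic BCL2 family gene, had 18.3, 11.1 and 12.4 against 34.7, 27.8 and 36.3 (1.71 after scaling).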
